A study of Homo sapiens with 4 samples.

Results

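H3K27ac peaks of K562 cells carrying the second of the TFAM shRNAs (TFAM-sh2, called hairpin 2 here) were compared with those of K562 cells carrying the control shRNA (shNT). K562 is a human erythroleukaemia line with erythroid and megakaryocytic features, grown in IMDM with serum, and the antibody in both libraries was Abcam ab4729. The pair are 2 of the 3 libraries with a peak list in the series, and they hold 23413 control peaks and 27007 hairpin 2 peaks of 74239 peaks in all. The members are these peaks and the 20149 protein-coding genes whose start sites they were set against. Whether the cells of a library were a pool or 1 clone was not given in the sources used here. Each side is 1 library, which leaves no replicate spread and allows no p-value. Ranges in brackets after percentages are 95% intervals by the exact Clopper-Pearson method and reflect counting error alone. The read depth behind the lists is unknown.

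Acetylation of lysine 27 on histone H3 is placed mainly by EP300 and CREBBP and marks active promoters and enhancers. The acetyl group comes from acetyl-CoA, which mitochondria supply to the nucleus as citrate. TFAM packages mitochondrial DNA and starts its transcription, so its loss lowers respiration. The series was made to map where the genome is acetylated when erythroid cells lack TFAM. The TFAM promoter itself was covered by a peak of 2983 bp in the control and 2447 bp in hairpin 2, which does not measure the knockdown, since an shRNA acts on the RNA. Erythroid markers were divided. HBZ, TFRC, LMO2, MYB and EPOR had a promoter peak on both sides and TAL1 in the control alone. GATA1, GATA2, KLF1, HBE1, HBG1 and HBG2, which define the erythroid state of these cells, had none in either list. An absent peak does not show that a gene lacks the mark. No listed peak was wider than 8841 bp. HBG1 and HBG2 are near-identical copies, and reads with more than 1 place in the genome were not kept. Near GATA2 the sides still differed, with 2492 bp under control peaks and 0 bp under hairpin 2 peaks within 5 kb of its start site.

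A promoter was called gained when a hairpin 2 peak but no control peak lay within 1 kb of the start site, and lost in the opposite case. These words describe the lists and no test. Below are the 200 bases before the start site of 7 such promoters in hg19, each 5' to 3' in the direction of its gene. They were chosen because MLLT10 and SMAP2 lead the gained promoters by score, SLC25A1 leads the lost ones, and SAFB2 shares 1 lost peak with SAFB. NR4A2, TAL1 and GFI1B are transcription factors described further on. Capitals mark the GATA hexamer AGATAA, the GC box GGGCGG and the CCAAT box CCAAT on either strand, with overlapping matches all counted.
MLLT10 (gained, chr10:21822961-21823160, plus strand): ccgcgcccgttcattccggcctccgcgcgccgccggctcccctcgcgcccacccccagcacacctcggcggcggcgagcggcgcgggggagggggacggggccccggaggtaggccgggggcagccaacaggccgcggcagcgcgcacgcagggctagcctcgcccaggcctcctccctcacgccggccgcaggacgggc
SMAP2 (gained, chr1:40839199-40839398, plus strand): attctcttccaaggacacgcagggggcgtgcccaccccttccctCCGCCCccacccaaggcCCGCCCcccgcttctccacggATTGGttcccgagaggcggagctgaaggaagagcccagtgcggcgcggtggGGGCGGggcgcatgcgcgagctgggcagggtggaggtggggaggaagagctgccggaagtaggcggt
NR4A2 (gained, chr2:157189234-157189433, minus strand): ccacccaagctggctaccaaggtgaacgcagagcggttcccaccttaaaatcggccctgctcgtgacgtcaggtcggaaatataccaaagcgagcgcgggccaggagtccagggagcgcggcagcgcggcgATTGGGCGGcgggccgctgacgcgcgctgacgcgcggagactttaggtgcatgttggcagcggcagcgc
SLC25A1 (lost, chr22:19166250-19166449, minus strand): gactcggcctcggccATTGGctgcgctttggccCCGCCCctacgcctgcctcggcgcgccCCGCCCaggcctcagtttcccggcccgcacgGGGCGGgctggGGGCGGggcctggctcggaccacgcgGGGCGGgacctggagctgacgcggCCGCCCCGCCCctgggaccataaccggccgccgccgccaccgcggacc
SAFB2 (lost, chr19:5622788-5622987, minus strand): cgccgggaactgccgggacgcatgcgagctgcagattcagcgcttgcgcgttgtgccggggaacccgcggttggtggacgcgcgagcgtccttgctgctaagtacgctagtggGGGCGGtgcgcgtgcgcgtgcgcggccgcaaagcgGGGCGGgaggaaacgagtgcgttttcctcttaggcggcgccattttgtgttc
TAL1 (lost, chr1:47697898-47698097, minus strand): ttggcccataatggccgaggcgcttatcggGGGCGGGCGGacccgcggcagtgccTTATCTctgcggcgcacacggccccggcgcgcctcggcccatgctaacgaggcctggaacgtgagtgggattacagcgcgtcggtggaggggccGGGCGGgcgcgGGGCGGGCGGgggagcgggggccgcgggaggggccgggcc
GFI1B (lost, chr9:135853881-135854080, plus strand): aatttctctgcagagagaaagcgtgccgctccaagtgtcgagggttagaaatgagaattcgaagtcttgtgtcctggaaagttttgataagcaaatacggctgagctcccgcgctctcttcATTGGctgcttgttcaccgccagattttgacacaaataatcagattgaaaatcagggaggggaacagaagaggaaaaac
G+C made up 80.5% of the SLC25A1 stretch, which held 7 GC boxes, and 82% of the MLLT10 stretch, which held none. The TAL1 stretch held 1 GATA hexamer and 5 GC boxes. The GFI1B stretch, at 45.5% G+C, held no AGATAA and no GC box. It held TGATAA, which differs from the counted hexamer in its first base and was not counted.

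Motifs were counted from 250 bases before to 50 after each start site, on both strands. For ETS, NRF1, GATA, GC box and AP-1 matches, gained and lost promoters lay between shared and unmarked ones. TATAAA and TGACGTCA went the same way. For CCAAT they did not lie between, nor did lost promoters for CCACACCC. That motif was in 3.41% of gained (2.15 to 5.11), 4.63% of lost (2.81 to 7.14), 2.78% of shared and 3.73% of unmarked promoters. The median G+C was 64.3% in 646 gained, 67.0% in 410 lost, 66.3% in 10360 shared and 57.3% in 8649 unmarked promoters, counting each start site once. The ETS motif CCGGAAG was found in 8.51% of gained (6.48 to 10.9), 12.4% of lost (9.40 to 16.0) and 22.9% of shared promoters (22.1 to 23.8), against 14.0% of all. The NRF1 palindrome, GCGC on each side of any 2 bases and read by a factor that controls many nuclear genes for mitochondria, was in 8.98% of gained (6.89 to 11.5), 10.7% of lost (7.91 to 14.1) and 18.6% of shared ones, against 12.1% of all. AGATAA was in 6.66% of gained and 6.10% of lost promoters, with intervals that overlap, against 7.24% of all. The AP-1 motif TGANTCA was in 6.97% of gained (5.13 to 9.21), 4.15% of lost (2.43 to 6.56) and 3.47% of shared promoters (3.13 to 3.85), against 5.44% of all. GGGCGG was in 62.7% of gained, 69.5% of lost and 60.9% of all, and CCAAT in 37.2%, 37.8% and 35.9%. A match in these windows is a description of the sequence and not a bound site.

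Unmatched peaks were more frequent in hairpin 2, the longer list. A counterpart was a peak of the other list that overlapped by at least 1 bp. In hairpin 2, 7473 of 27007 peaks (27.7%, 27.1 to 28.2) had none, and in the control 3884 of 23413 (16.6%, 16.1 to 17.1). With the lists cut to equal length by score the shares were 20.9% and 20.7%. Matching was almost 1 to 1, so equal lengths leave nearly equal numbers unmatched, and this closeness is no result. Unmatched peaks were narrow and low in score, with median widths of 1029 bp in hairpin 2 and 1047.5 bp in the control against 2362.5 and 2122 bp for matched ones. Their median score percentiles, ranked within each list, were 20.3 and 17.8, against 63.4 and 57.5. They made up 16.4% of the base pairs of hairpin 2 and 11.5% of those of the control. Among the higher-scoring 50% of peaks, 583 of 13503 hairpin 2 peaks (4.32%) and 282 of 11706 control peaks (2.41%) had no counterpart.

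**Figure D1:**
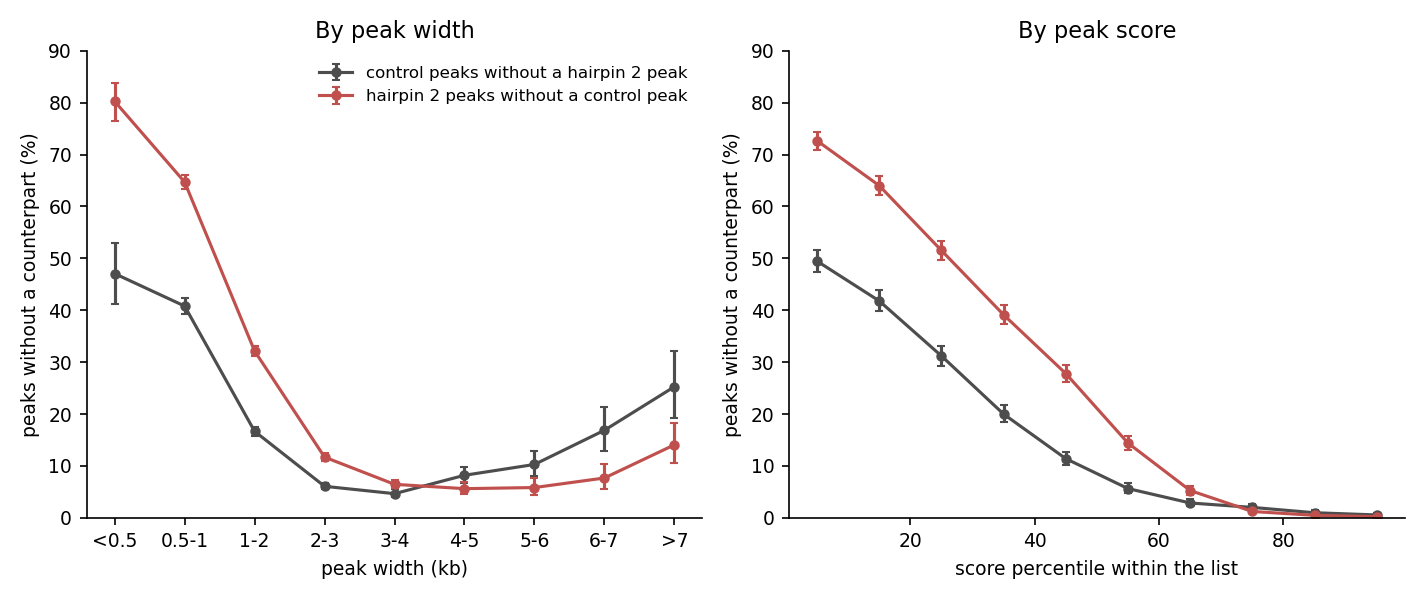
Share of peaks without a counterpart in the other list (%, vertical axes) by peak width in kb (left) and by score percentile within the list (right), for control peaks (grey) and hairpin 2 peaks (red); bars are exact 95% intervals for counting error. The share falls with score in both lists, from 49.5% to 0.56% in the control, while by width it has its lowest control value, 4.66%, at 3 to 4 kb and is higher again, 25.3%, above 7 kb.

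By width the share of unmatched peaks had a high value at both ends, as the plot of counterparts shows. Of control peaks of 0.5 to 1 kb, 40.8% (39.3 to 42.3) had no hairpin 2 counterpart. The share was 4.66% (3.92 to 5.48) at 3 to 4 kb, 10.3% (8.03 to 12.9) at 5 to 6 kb, 16.9% (12.97 to 21.4) at 6 to 7 kb and 25.3% (19.3 to 32.1) above 7 kb. The hairpin 2 list had the same form with a smaller turn, at 5.62% (4.57 to 6.83) for 4 to 5 kb and 14.1% (10.5 to 18.3) above 7 kb. Within the higher-scoring 50% of the control the share was 1.62% (1.27 to 2.03) at 2 to 3 kb and 12.5% (7.45 to 19.3) at 6 to 7 kb. Score also turned with width: the median percentile of control peaks was 76.4 at 3 to 4 kb, 45.6 at 6 to 7 kb and 26.6 above 7 kb. The widest peak was 8704 bp in the control and 8841 bp in hairpin 2. Unmatched control peaks of 5 kb or more lay a median of 8547 bp from the nearest hairpin 2 peak, and 4 of the 168 had one within 1 kb. Narrower unmatched control peaks lay farther from one, at a median of 17041 bp. A hairpin 2 peak was more than 10 kb away for 44.6% of the wide and 66.2% of the narrower ones. Whether the caller left out the widest domains was not tested.

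Peaks listed on both sides were slightly wider in hairpin 2. Peaks of both lists that overlapped were joined into 19333 shared regions, of which 18953 held 1 peak from each list. Their median covered length was 2138 bp in the control and 2388 bp in hairpin 2, and the median ratio of hairpin 2 to control was 1.09-fold (log2 0.12, quartiles -0.12 and 0.44). Regions wider by 1.5-fold or more made up 18.2% and those narrower by as much 6.86%. At 9088 promoter regions the median log2 ratio was 0.11, and at 10245 other regions it was 0.14 with a broader spread (quartiles -0.20 and 0.56). Exonic regions had the highest median, 0.26, and 31.2% of the 1890 were wider by 1.5-fold or more. At 10154 promoters with 1 peak a side the added length lay mostly inside the gene. The downstream edge was a median of 148 bp farther from the start site (quartiles -55 and 399), and the upstream edge 24 bp farther (quartiles -137 and 215).

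**Figure D2:**
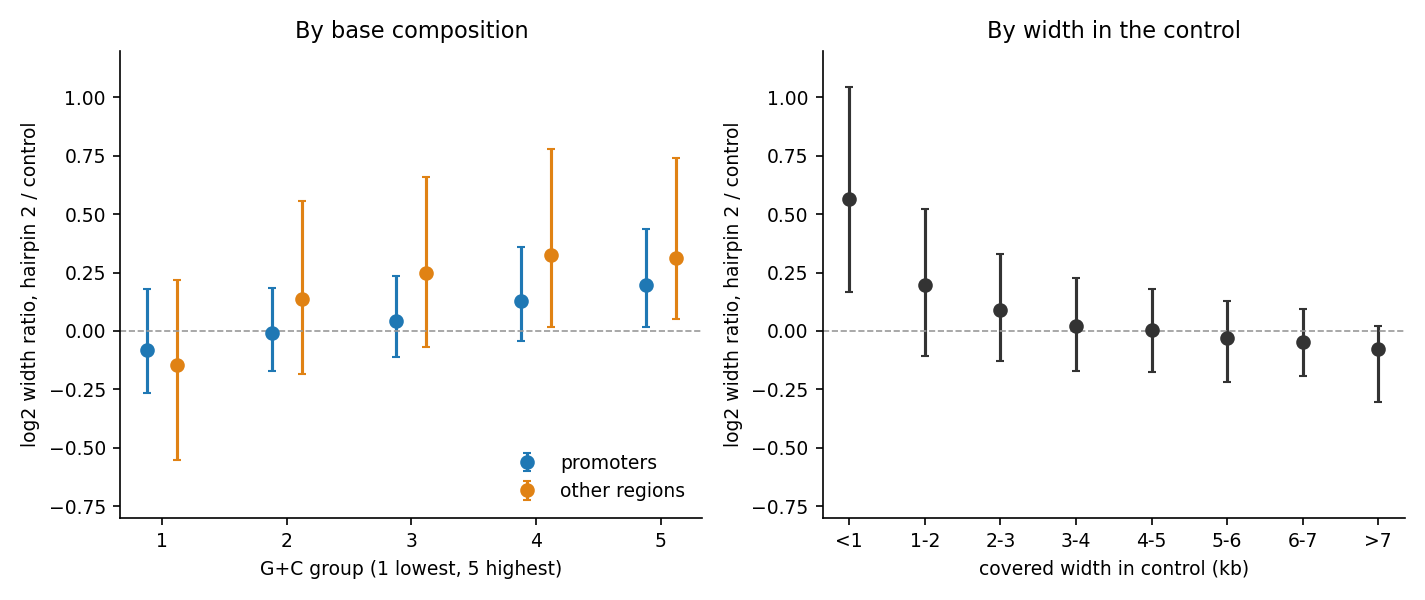
Log2 ratio of covered width, hairpin 2 over control, at shared regions (vertical axes), by G+C group for promoters and other regions (left) and by covered width in the control in kb (right); points are medians and bars quartiles over regions. Medians lie below 0 in the G+C-poorest group and are 0.20 at promoters and 0.31 elsewhere in the richest group, where the value outside promoters is slightly under the 0.33 of the fourth group, and they go from 0.57 for the narrowest control regions to -0.08 for the widest.

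The width ratio moved with base composition and with the starting width. The union of all regions was cut into 5 G+C classes of similar number. In the poorest group (25.5% to 41.9% G+C) the median log2 ratio was -0.08 at promoters and -0.15 elsewhere, and in the richest (57.0% to 89.8%) it was 0.20 and 0.31. Lost regions followed the same axis, as 37.3% of control regions (35.9 to 38.6) in the poorest group and 8.77% (7.97 to 9.62) in the richest had no hairpin 2 peak. Gained regions did so much less, with 27.6% and 25.4% of hairpin 2 regions in those groups. Median G+C was 42.3% in lost, 49.2% in gained and 49.9% in shared regions. Regions under 1 kb in the control had a median log2 ratio of 0.57 and those above 7 kb one of -0.08. The control width used for this grouping is also in the ratio. The part of G+C in the other results was not tested.

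**Figure D3:**
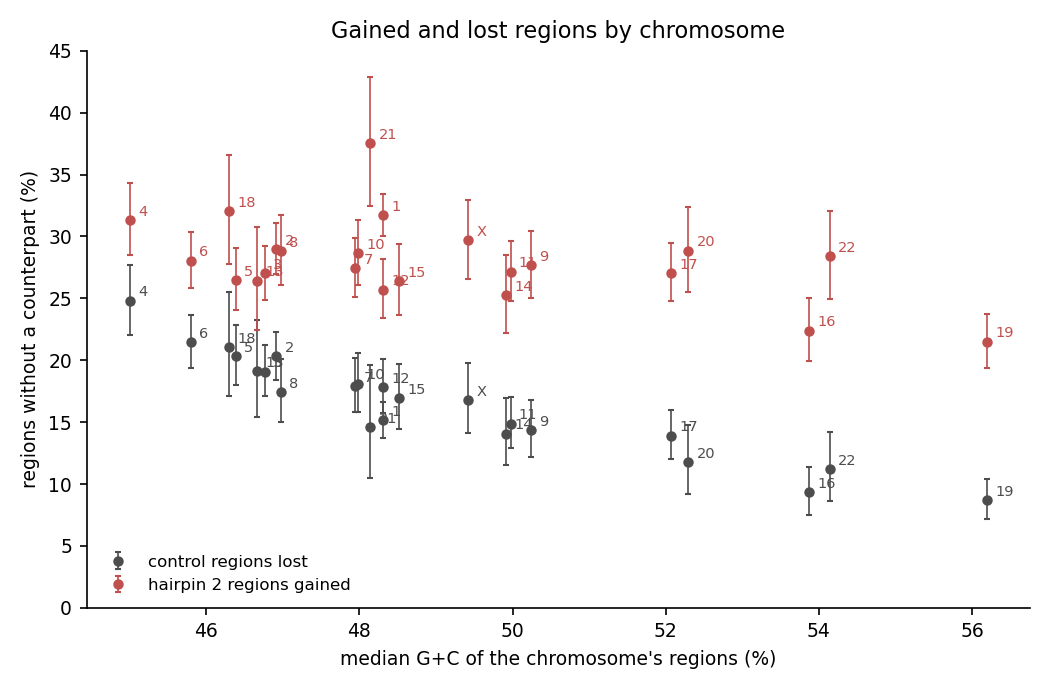
Share of control regions lost (grey) and of hairpin 2 regions gained (red) on each chromosome (%, vertical axis) against the median G+C of that chromosome's regions (%, horizontal axis); labels name chromosomes 1 to 22 and X, and bars are exact 95% intervals. The lost share runs from 8.69% on chromosome 19 to 24.8% on chromosome 4, and the gained share is highest on chromosome 21 at 37.6%.

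Across chromosomes the lost share was lowest on chromosome 19, at 8.69% (7.18 to 10.4), and highest on chromosome 4, at 24.8% (22.1 to 27.7). Their regions had the highest median G+C, 56.2% on chromosome 19, and the lowest, on chromosome 4, among chromosomes 1 to 22 and X. Gained shares were between 21.5% and 32.1% on the other chromosomes shown, and 37.6% (32.5 to 42.9) on chromosome 21. The median log2 width ratio was 0.00 on chromosome 4, 0.23 on chromosome 19 and 0.28 on chromosome 22. By distance to the nearest start site, 6.07% of hairpin 2 regions within 1 kb had no control peak, 37.3% at 1 to 10 kb, 39.8% at 10 to 100 kb and 43.2% farther out. For control regions the same shares were 4.01%, 23.3%, 24.3% and 30.0%. Promoters made up 47.0% of shared, 7.85% of gained and 9.78% of lost regions.

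At gene promoters hairpin 2 gained 646 genes, 3.21% of all coding genes and 6.93% of the 9325 without a control promoter peak. It lost 411 genes, 2.04% of all and 3.8% of the 10824 with a control promoter peak. A further 10413 were marked in both and 8679 in neither. With equal list lengths 499 were gained and 484 lost. Matching of peaks was almost 1 to 1, so this closeness is no result either. The gained promoters had a median hairpin 2 peak of 1311 bp at score percentile 30.7, and 137 lay in the higher-scoring 50%. For 64 of them a control peak ended within 1 kb of the promoter window, while 403 had no control peak within 10 kb. The lost promoters had a median control peak of 2204 bp at percentile 36.9, and 130 lay in the higher-scoring 50%. For 26 of them a hairpin 2 peak lay within 1 kb of the window, and 251 had none within 10 kb. Of promoters with a control peak of 5 kb or more, 95 of 809 were lost (11.7%, 9.61 to 14.2), against 316 of 10015 narrower ones (3.16%, 2.82 to 3.52). Of promoters with a hairpin 2 peak of 5 kb or more, 84 of 1182 were gained (7.11%, 5.71 to 8.72), against 5.69% of 9877 narrower ones (5.24 to 6.17), and these intervals overlap.

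The gained promoter of highest score was that of MLLT10, a leukaemia fusion partner that works with the H3K79 methyltransferase DOT1L. It had 0 bp in the control and a peak of 4050 bp in hairpin 2 (chromosome 10, 21821250 to 21825299), at percentile 90.9 of that list, and the next control peak was 15643 bp away from the promoter window. SKIDA1, its neighbour, had 0 bp and 5959 bp. SMAP2, a GTPase-activating protein that switches ARF off in vesicle transport, had 0 bp and 3718 bp (chromosome 1, 40838543 to 40842260), with no control peak within 59028 bp. CACYBP, a partner of ubiquitin ligases, had 0 bp and 5299 bp, and PHF21A, the reader of unmethylated H3K4 in the LSD1 complex, had 0 bp and 4880 bp. NR4A2, an immediate early nuclear receptor, had 0 bp and 6253 bp (chromosome 2, 157187579 to 157193831). The zinc finger genes ZNF736 and ZNF556 had 0 bp in the control and 2052 and 3017 bp in hairpin 2. These 8 genes had no control base pair under a peak within 5 kb of the start site. The other 7 of the 15 highest, among them TMEM88, ADHFE1, GJD3, MDP1 and SBK3 and 2 genes known by identifier, had a control peak within 1 kb of the promoter window. At TMEM88, for example, an inhibitor of Wnt signalling, covered length within 5 kb was 2665 bp in the control and 3173 bp in hairpin 2, and the control peak stopped 214 bp short of the window. Of the 15 genes, 11 had a promoter peak in the hairpin 1 list, with 3851 bp at MLLT10, 5031 bp at NR4A2 and 4847 bp at PHF21A and none at SMAP2. The gene in 15th place, SBK3, was at percentile 72.4 and the next one, PTPRH, at 72.3.

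**Figure D4:**
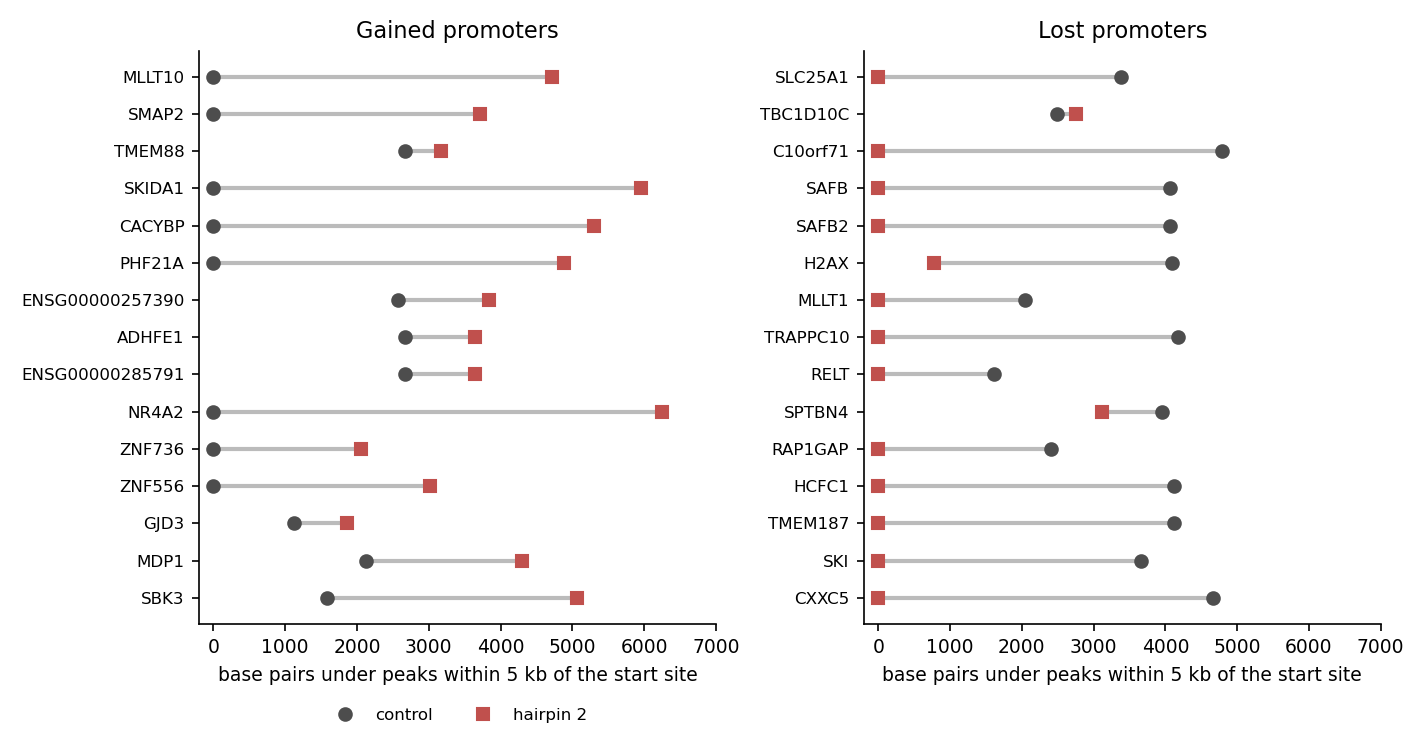
Base pairs under peaks within 5 kb of the start site (horizontal axes) in the control (grey circles) and hairpin 2 (red squares) for the 15 gained promoters of highest hairpin 2 score (left) and the 15 lost promoters of highest control score (right); each point is 1 library. Of the gained promoters 8 are at 0 in the control, and of the lost ones 12 are at 0 in hairpin 2, while the rest keep a peak nearby.

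The lost promoter of highest score was that of SLC25A1, the mitochondrial citrate carrier whose export feeds nuclear acetyl-CoA. Its control peak of 3379 bp was at percentile 99.9, and the nearest hairpin 2 peak lay 4521 bp from the promoter window. C10orf71, at 4790 bp, and CXXC5, a CpG-binding zinc finger protein, at 4661 bp, had 0 bp in hairpin 2. SAFB and SAFB2, paired nuclear scaffold proteins, share a control peak of 4060 bp (chromosome 19, 5620949 to 5625008), and no hairpin 2 peak lay within 35000 bp of the promoter window of SAFB2. H2AX, the histone variant phosphorylated at DNA breaks, had a control peak of 3479 bp, and 771 bp of hairpin 2 peaks lay within 5 kb of its start site. MLLT1, which reads acetylated histones in the super elongation complex, had 2040 bp in the control and no hairpin 2 peak within 60200 bp. HCFC1, a cofactor of cell cycle transcription, and TMEM187 share a peak of 4117 bp on chromosome X. TRAPPC10 had 4182 bp, RAP1GAP 2408 bp, RELT 1612 bp and SKI, a repressor of TGF-beta signalling, 3654 bp. TBC1D10C and SPTBN4 kept a hairpin 2 peak 52 and 117 bp outside the window, with 2756 and 3122 bp covered within 5 kb, so these 2 lost their overlap with the window only. Of the 15 genes, 13 had a promoter peak in the hairpin 1 list, with 3928 bp at SAFB, 7038 bp at HCFC1 and 7680 bp at RELT. SLC25A1 and SKI had none there. Both hairpin lists were set against the same control. CXXC5, in 15th place, was at percentile 88.3 and the next gene, CSF1, at 88.1.

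Among promoters marked in both lists, 1188 (11.4% of 10413) were wider by 1.5-fold or more in hairpin 2 and 249 (2.39%) narrower by as much. In the higher-scoring 50% of both lists 672 of 8655 were wider and 127 narrower. TUBB6, a beta-tubulin, had the largest ratio there, from 2862 bp to 9483 bp, the sum of the peaks that touch its promoter (3.31-fold). E2F1, an activator of S phase genes, had 1768 and 5593 bp (3.16-fold). FN3K, a kinase that repairs glycated proteins, had 1849 and 5868 bp, PRPSAP2 had 1931 and 6128 bp, and RGS10, a regulator of G protein signalling, had 2104 and 6490 bp. MYO1C, DEXI and PCYT2 had ratios of 3.26, 3.08 and 2.98-fold, though covered length within 5 kb of the DEXI start site was 3506 bp in the control and 5343 bp in hairpin 2. At the other end APLF, a DNA repair factor, and FBXO48 share a promoter that covered 2386 bp in the control and 920 bp in hairpin 2 (0.39-fold). HBP1, a transcriptional repressor of the cell cycle, had 5267 and 2109 bp, PKNOX1, a homeobox factor, 5862 and 2433 bp, and SAT1, the polyamine acetyltransferase, 4093 and 1761 bp. TEX9 and RAB3GAP1 had ratios of 0.39 and 0.41-fold.

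Away from start sites, beyond 2.5 kb, 6784 regions were gained, 3432 lost and 10077 shared. The 6 gained ones of highest score were all narrow, between 321 and 565 bp. The first, on chromosome 5 from 71146601 to 71147107, lay 131499 bp from CARTPT at percentile 99.6, and the second, of 321 bp on chromosome 2 from 76672219 to 76672539, lay 734178 bp from GCFC2. The others lay in introns, nearest to SLCO1C1, UNC45B, PTPRD and AAMDC. Peaks of 600 bp or less above percentile 90, a class chosen after these values were seen, numbered 6 in hairpin 2, 5 of them without a counterpart, and 1 in the control, which had a counterpart. Of the 6 lost distal regions of highest score, 5 were wider than any of these. The first lay 5086 bp from the SLC25A1 start site (chromosome 22, 19157906 to 19161163, 3258 bp), next to the lost promoter peak. These 2 neighbouring absences may not be separate losses. The widest listed hairpin 2 peak was 8841 bp, and whether a wider domain spans both places was not tested. An exonic region 32190 bp from HIRA, a histone H3.3 chaperone, spanned 3724 bp. A further 3, of 5205, 4146 and 501 bp, lay 25406, 35860 and 340237 bp from their nearest genes AL137798.1, TRIM11 and TBC1D5.

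Runs of at least 4 neighbouring regions of a list with no counterpart were also listed. There were 179 gained and 70 lost runs. In all, 27.7% of hairpin 2 peaks and 16.6% of control peaks had no counterpart. How many runs these shares alone would give was not worked out, so the counts do not show clustering. The lost run with most regions held 11 control peaks over 1023 kb of chromosome 7 (18395313 to 19418421) around HDAC9, a class IIa deacetylase, and TWIST1, a mesodermal factor, with 20393 bp under control peaks and 0 under hairpin 2 peaks. These peaks ranged from 764 to 4826 bp at percentiles 14.97 to 43.5, so none was among the higher-scoring 50% of the control. The hairpin 1 list also had 0 peaks there. A lost run at CLEC3B and CDCP1 (chromosome 3, 45082336 to 45182052) held 9 control peaks over 37613 bp, against 5 hairpin 1 peaks and none in hairpin 2. The gained run with most regions held 13 hairpin 2 peaks over 1003 kb around SPATA16 and NLGN1 on chromosome 3, with 14127 bp in hairpin 2 and 746 bp in the control. A gained run of 11 peaks covered EVC2, EVC, CRMP1 and WFS1 on chromosome 4, with 15439 bp in hairpin 2 and 0 in the control. The hairpin 1 list had 0 peaks in both of these gained runs. In the lost runs at SPRY1 on chromosome 4 and KYNU on chromosome 2 it had 8 and 6 peaks, where the control had 8 and 9 and hairpin 2 had 1 each. The runs were looked for after the lists had been compared.

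Gene groups were then read against all coding genes. The 25 lists hold 440 distinct genes, of which 325 were shared, 12 gained (2.73%), 21 lost (4.77%) and 82 unmarked in both. Over all coding genes 3.21% were gained and 2.04% lost. A gene with a control promoter peak cannot be gained, and 346 of the 440 had one, against 10824 of all 20149 coding genes. The gained shares of the lists and of all genes are therefore not comparable as they stand. Among all coding genes without a control promoter peak 6.93% were gained, and among those with one 3.8% were lost. The lists were chosen with earlier results known, and their gained and lost shares are descriptions. The lost members had wide peaks. Their median control peak was 4852 bp and 10 of the 21 had 5 kb or more, while among all 411 lost promoters 95 did. For 17 of them no hairpin 2 peak lay within 5 kb of the promoter window. The gained members had a median of 2543.5 bp, and 10 of the 12 had no control peak within 10 kb.

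**Figure D5:**
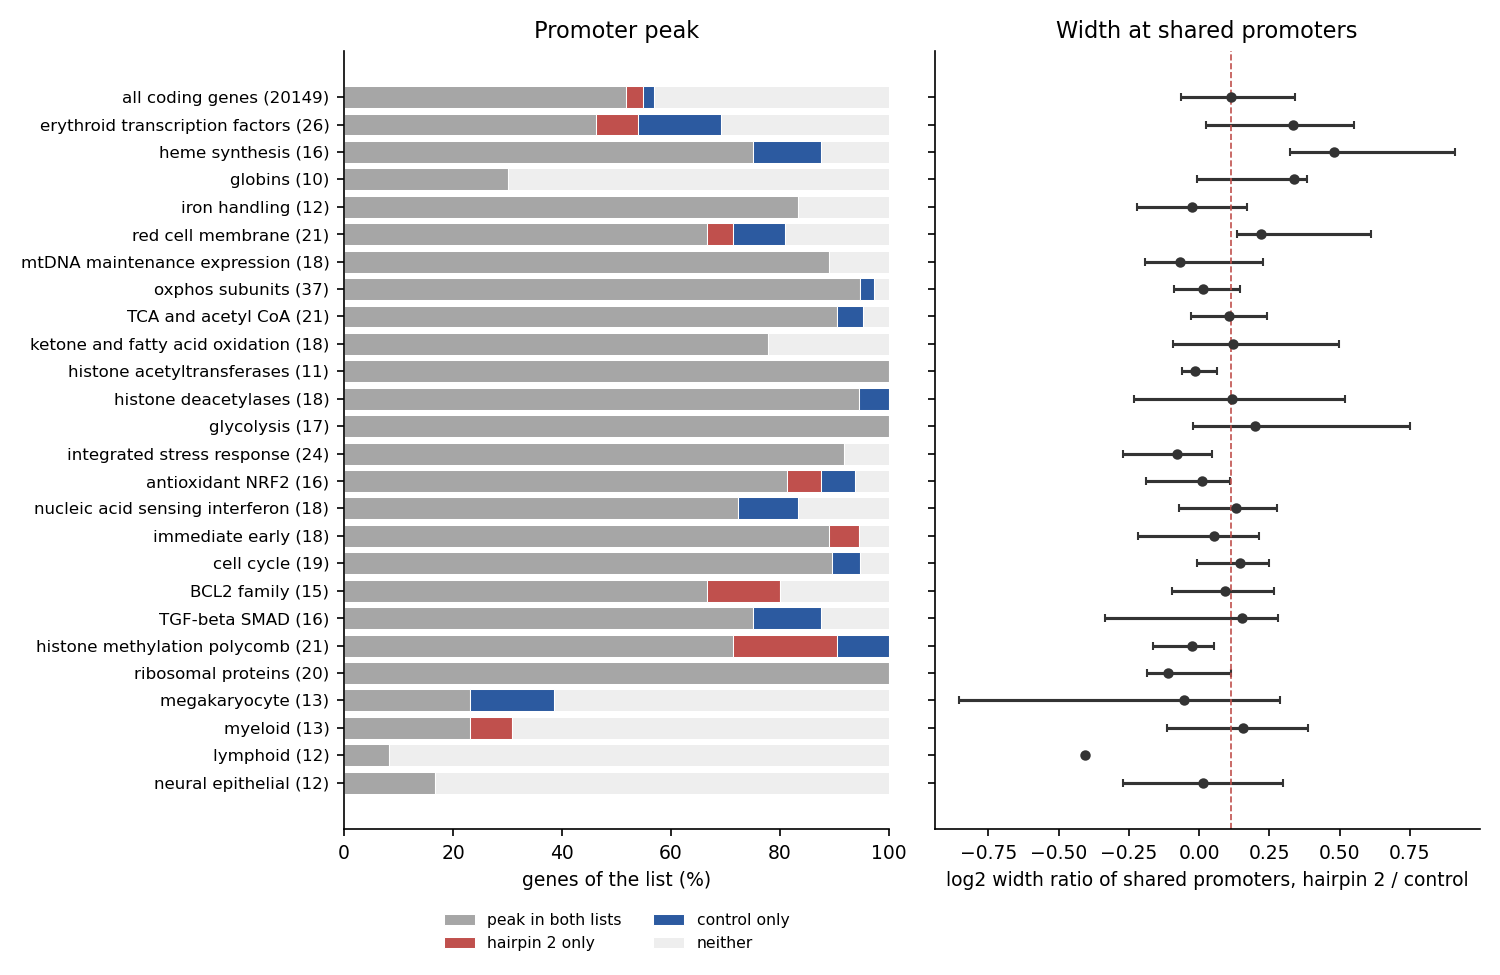
Left, share of each gene list (%, horizontal axis) with a promoter peak in both lists, in hairpin 2 only, in the control only or in neither, with the number of genes in brackets; right, log2 width ratio (hairpin 2 over control) at the shared promoters of each list, as median and quartiles over genes, with the median of all coding genes as a dashed line. Heme synthesis has the highest median, 0.48, against 0.11 for all genes, and 4 of the 26 erythroid transcription factors are in the control only.

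Erythroid regulators differed in both directions. Of 26 transcription factors of the red cell lineage, 12 were shared, 2 gained, 4 lost and 8 unmarked in both, against 3.21% gained and 2.04% lost of all coding genes. TAL1, which nucleates the erythroid activator complex, had a peak of 5929 bp in the control (chromosome 1, 47693009 to 47698937) and none in hairpin 2, where the nearest peak lay 7080 bp from the promoter window. ZFPM1, the GATA1 cofactor FOG1, went from 5997 bp to 0 and IKZF1, the Ikaros factor, from 7094 bp to 0. GFI1B, a repressor of red cell and platelet genes, went from 7351 bp to 0, with the control peak at percentile 2.51 of its list. The hairpin 1 list had peaks of 5523 bp at TAL1, 6578 bp at ZFPM1 and 7801 bp at IKZF1 and none at GFI1B. GFI1 and BCL11A, the fetal globin repressor, were gained with narrow peaks of 998 and 529 bp. At the 12 shared promoters the median log2 ratio was 0.34, with 3 wider by 1.5-fold or more. Chosen after their values were seen, LDB1, the TAL1 partner, had 2170 bp in the control and 5104 bp in hairpin 2, and MAFG, a small MAF protein, had 3380 and 7654 bp.

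Most heme synthesis genes with a peak in both lists had a wider one in hairpin 2, though fewer than 50% passed 1.5-fold. Of 16 genes, 12 were shared with a median log2 ratio of 0.48 (quartiles 0.32 and 0.91), against 0.11 over all genes, and 5 of them were wider by 1.5-fold or more, against 11.4% of all shared promoters. ALAS2, the erythroid enzyme of the first step, had 2506 bp in the control and 6417 bp in hairpin 2. SLC25A38, the glycine carrier, had 4018 and 8198 bp, CPOX had 2327 and 4535 bp and ABCB10, a mitochondrial transporter, 3122 and 5800 bp. These 4 were chosen after their values were seen, from the wide end of the list. Within 5 kb of the SLC25A38 start site the covered length hardly differed, with 5677 bp in the control and 5881 bp in hairpin 2. Its hairpin 2 peak was at percentile 12.1 and its control peak at 69.9. At the other end UROS, an enzyme of ring closure, had 3341 and 3000 bp and HMOX2, a heme oxygenase, 4302 and 4267 bp. Of the 2 lost genes, PPOX, which oxidises protoporphyrinogen, had 3358 bp in the control, and the nearest hairpin 2 peak lay 7965 bp from its window. Of 21 genes of the red cell membrane 14 were shared, with a median log2 ratio of 0.22, while 1 was gained and 2 were lost. Over all coding genes 3.21% were gained and 2.04% lost, and lists this short do not set these counts or the heme counts apart. SLC4A1, the band 3 anion exchanger, was gained with 3485 bp. GYPC, glycophorin C, was lost from 6366 bp and RHAG, the Rh-associated glycoprotein, from 8322 bp, which is close to the widest control peak. EPB42, a protein that ties band 3 to the membrane skeleton, had 973 and 3075 bp and was picked with its values known.

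Globin and iron genes showed no gained or lost promoter. Shares of 3.21% gained and 2.04% lost over all coding genes do not set this apart in lists of 10 and 12 genes. HBZ, the embryonic alpha-like chain, had 4555 bp in the control and 5764 bp in hairpin 2, and HBD, the delta chain, 2178 and 1703 bp. The other shared globin gene was HBQ1, while 7 of 10 globin promoters were unmarked on both sides. HBA1 and HBA2, and HBG1 and HBG2, are near-identical copies, and reads with more than 1 place in the genome were not kept. Of 12 iron genes 10 were shared with a median log2 ratio of -0.02. FTL, the ferritin light chain, had 7901 and 8354 bp and PCBP1, an iron chaperone, 7052 and 5892 bp.

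Nuclear genes for mitochondria were mostly marked in both lists. None of 18 genes that maintain or express mitochondrial DNA was gained or lost, a count that shares of 3.21% and 2.04% over all genes do not set apart in so short a list. The 16 shared ones, TFAM included, had a median log2 ratio of -0.07. LIG3, the mitochondrial DNA ligase, had 3835 bp in the control and 3106 bp in hairpin 2, and LRPPRC, which stabilises mitochondrial mRNAs, 3500 and 3061 bp. Of 37 subunits of the respiratory chain 35 were shared, with a median of 0.02, and ATP5F1D, of the ATP synthase, had 4054 bp in the control and none in hairpin 2. Of 21 genes that run the Krebs cycle or supply acetyl-CoA 19 were shared, with a median of 0.11, and SLC25A1 was lost. CS, citrate synthase, had 4356 and 4249 bp. Of 18 genes of ketone and fatty acid oxidation 14 were shared, with a median of 0.12. HADHA and HADHB, subunits of the trifunctional protein, share a peak of 5855 bp in the control and 5331 bp in hairpin 2. The medians of the first 2 groups lay below the 0.11 of all coding genes and those of the last 2 close to it.

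The listed acetyltransferase genes, among them EP300 and CREBBP, the main enzymes that place the mark, had a promoter peak in both lists. The 11 acetyltransferase promoters had a median log2 ratio of -0.01. EP300 had 3223 bp in the control and 3075 bp in hairpin 2 and CREBBP 2465 and 2371 bp, both named with their values known. KAT2B and KAT5, those with most covered sequence, had 4064 and 3550 bp, and 3940 and 3904 bp. Of 18 deacetylases and sirtuins 17 were shared, with a median of 0.12, and HDAC9 was lost from 2505 bp, with no hairpin 2 peak within 315171 bp. SIRT7 and SIRT6, nuclear sirtuins chosen after their values were seen, had 2641 and 5979 bp, and 1558 and 3382 bp. Among 21 genes of histone methylation and Polycomb 4 were gained and 2 lost, where all coding genes had 3.21% and 2.04%. Beside MLLT10 and PHF21A, the gained ones were DOT1L, the H3K79 methyltransferase that MLLT10 binds, with 5015 bp, and SETD5 with 6629 bp. Among the lost ones was BMI1, a core subunit of the Polycomb repressive complex PRC1, from 7402 bp. The 15 shared genes of that list had a median of -0.02. Several members of this list had been named in earlier results of these data, so its counts support nothing.

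The stress and signalling lists are short, and their counts stand beside 3.21% gained and 2.04% lost of all coding genes. Of 24 genes of the integrated stress response 22 were shared and none gained or lost, with a median log2 ratio of -0.08. DDIT3, the stress factor CHOP, had 7052 bp in the control and 5066 bp in hairpin 2, GDF15, a stress cytokine, 5369 and 5105 bp, and ATF4, picked with its values known, 4146 and 6327 bp. Of 16 antioxidant genes 13 were shared, 1 gained and 1 lost, with a median of 0.01. TXNRD1, thioredoxin reductase, was the gained one, with 766 bp. NFE2L2, the antioxidant activator NRF2, had 6967 and 4930 bp, and SLC7A11, the cystine transporter, 6893 and 3779 bp, again named with their values known. In the list for nucleic acid sensing and interferon 2 of 18 genes were lost, IRF1 from 2756 bp and RIGI, an RNA sensor, from 1507 bp. IFIH1, the RNA sensor MDA5, and TBK1, the kinase below the sensors, both chosen after their values were seen, had 3013 and 426 bp, and 8002 and 3991 bp. The 13 shared members had a median of 0.13, and these 2 were the members narrower by 1.5-fold or more. The 2 members wider by as much were IRF9, a transcription factor of the interferon response, with 956 and 2350 bp, and IFIT1, an RNA-binding interferon target, with a ratio of 1.57-fold. NR4A2 was the gained gene among 18 immediate early genes, of which 16 were shared with a median of 0.05.

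In the cell cycle list CCND3, the D-type cyclin of erythroid cells, was lost from 6624 bp, and 17 of 19 were shared with a median log2 ratio of 0.14. Counts in this and the next lists stand beside 3.21% gained and 2.04% lost of all coding genes. Of 15 BCL2 family genes 10 were shared and 2 gained. These were BIK and BMF, both pro-apoptotic, with 673 and 1602 bp at the low percentiles of 17.3 and 11.1. In the TGF-beta list of 16 genes 12 were shared and 2 lost. SKI was lost from 3654 bp and ID3, an inhibitor of helix-loop-helix factors, from 3388 bp, though ID3 kept 2770 bp of hairpin 2 peaks within 5 kb. Glycolysis genes were shared in 17 of 17, with a median of 0.20. HK1, hexokinase, had 6517 and 8032 bp and GAPDH 4998 and 5449 bp. All 20 ribosomal protein promoters were shared with a median of -0.11, and RPLP0 had 4468 and 4832 bp and RPL3 5530 and 4922 bp.

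Markers of other lineages were mostly unmarked in both lists. Their gained and lost members stand beside 3.21% gained and 2.04% lost of all coding genes. Of 13 megakaryocyte genes, which K562 partly expresses, 8 had no promoter peak in either list. GP1BB, a platelet receptor subunit, was lost from 7966 bp and TUBB1, the platelet tubulin, from 4852 bp. The list's covered length within 5 kb of start sites summed to 27083 bp in the control and 10994 bp in hairpin 2. Of 13 myeloid genes 9 were unmarked and CSF3R, the G-CSF receptor, was gained with 1355 bp. The 3 shared ones were SPI1, with 2693 bp in the control and 3002 bp in hairpin 2, LYZ and CD33. The sums for the myeloid list were 8627 and 13041 bp. Of 12 lymphoid genes 11 were unmarked, with sums of 4349 and 7071 bp, and TCF7, the shared one, had 1191 and 899 bp. CD2, of T cells, had most covered sequence in the control but no peak at its promoter. MPO and ELANE, which define myeloid cells, and PAX5, of B cells, were unmarked on both sides. So were the erythroid genes GATA1 and KLF1, so an absent peak does not separate the lineages here. Of 12 neural and epithelial genes 10 were unmarked, with sums of 6985 and 7035 bp; PAX6 had 2602 and 3898 bp and EPCAM 2199 and 1498 bp.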

How the data were processed

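Peak lists of 2 H3K27ac ChIP-seq libraries, grouped by sample title, were compared. Per the labels' protocols, reads with exactly 1 place in hg19 were kept. Bowtie 0.12.7 and Picard are named per the submitters' processing notes. From the peak names the caller was MACS. Version, cutoff, handling of the input and depth are not given in the sources used here. For each peak the deposited score is the authors' value, ran from 50 to 3100 in the control, and served to rank peaks inside 1 list. The input was not analysed here, and hairpin 1 values are given for a few genes only.

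Genes came from GENCODE 44 on GRCh37, with 19869 canonical start sites among 20149 coding genes. All peaks lay inside its chromosomes. Promoter peak width is the summed width of peaks that touch the 1 kb before or after the start site. Sequence was read from GRCh37, and positions are 1-based. Regions within 1 kb of a start site were classed as promoter, then exon, intron or intergenic. The text names the 15 gained and 15 lost promoters of highest score, the 8 shared promoters that widened and the 8 that narrowed most among those in the higher-scoring 50% of both lists, 6 distal regions per direction, gained or lost list members, or otherwise the 2 with most covered sequence, and markers. Members and lists were chosen with earlier results of these data known. Some genes and 1 promoter sequence are not reported here. In the gene lists DDX58 was read as RIGI, its present symbol. Code was tested on simulated lists. Tables were made in pandas 2.3.3 and numpy 2.4.6 under Python 3.11.15, intervals in SciPy 1.17.1 and figures in matplotlib 3.10.9. Alternatives changed the overlap, the list length, the peaks used, the gap that counts as absence, the chromosomes, the promoter window and the start sites.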

Additional observations from a re-analysis of the deposited data

How the results depend on the processing

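The share of hairpin 2 peaks without a control counterpart was 4.32% in the higher-scoring 50% of the list, 20.9% with equal list lengths, 26.97% with absence taken as no peak within 1 kb and 30.2% for peaks under 5 kb. The share of control peaks without a hairpin 2 counterpart was 2.41%, 20.7%, 16.0% and 20.8% in the same order, and 17.1% with an overlap of 50% of the shorter peak. Near-equal shares at equal list lengths follow from matching that is almost 1 to 1, so they are no result. The median log2 width ratio was 0.13 with equal list lengths and 0.12 under the other 4 settings tried. Gained promoters numbered 137 and lost ones 130 in the higher-scoring 50%, and lost ones 849 when only peaks under 5 kb were kept, a setting that removes wide hairpin 2 peaks from the lookup. Under the other settings gained promoters numbered 499 to 721 and lost ones 385 to 484. No paired analysis was possible because each group holds 1 library. An absent peak does not show an unmarked region, because read depth and caller settings are unknown, and a difference between these 2 libraries has no replicate check.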
